A study of Rattus norvegicus with 256 samples.

Results

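The genes described here are 42 genes that cells use to copy their DNA and divide, measured across 31 organs of rats. They were chosen by symbol, and a gene counted as measured when at least 1 probeset of the array was annotated to it alone. On that rule 38 of the 42 genes were measured, on 53 probesets, out of 14217 genes with a probeset of their own on the whole array. Tpx2, Cdc6 and Ndc80 had no probeset under their symbol, and Rrm2 was found only on probesets shared with Rrm2l1, so these 4 genes have no value below. Where a gene had several probesets, the one with the highest mean over all arrays stands for it. Of the 38 genes, 28 act in mitosis (10 kinases, cyclins and their partners, 9 genes of the checkpoint, kinetochore and anaphase, 7 genes of the spindle and cytokinesis, and the markers Mki67 and Top2a) and 10 in DNA replication (6 licensing genes and 4 genes of the replication fork and of nucleotide supply).

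The study collected organs from male and female rats of 1 strain, AlpkHsdBrlHan:WIST, which derives from Han Wistar, for which the labels give no treatment and name each sample as normal tissue. RNA of each organ of each animal was hybridised singly to an Affymetrix RAE230_2 array, giving 127 male and 129 female arrays over 26 somatic organs of both sexes and 5 organs of 1 sex (testes, epididymis and prostate in males, ovary and uterus in females). An organ had 3 to 10 arrays and an organ and sex 2 to 5. Replicates are therefore different rats, and values are deposited log2 expression values after GCRMA normalisation.

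A dividing cell first licenses its replication origins with the Mcm helicase, then copies DNA with the sliding clamp Pcna and nucleotides made by ribonucleotide reductase, thymidylate synthase and thymidine kinase. In mitosis the kinase Cdk1 with its B-type cyclins drives entry, the spindle checkpoint holds the cell until chromosomes are attached, and Cdc20 and Ube2c then direct the anaphase-promoting complex to destroy cyclins. Most of these transcripts are made only in part of the cell cycle and are low in resting cells, so they are widely used as a readout of how many cells of a tissue divide. In whole organs, a smaller number of dividing cells and less transcript per dividing cell cannot be told apart.

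Several promoter elements are known for such genes: the E2F element, best known from genes used in DNA synthesis, and the pair of a CCAAT box with a cell cycle homology region (CHR), best known from genes used in mitosis. These letters were sought on both strands in the 250 bases before the annotated start, for the 32 of 38 genes with a window in the RefSeq table (build GRCr8), and in all 33469 windows of the table. The E2F letters (TTTCCCGC, TTTCGCGC, TTTGCCGC or TTTGGCGC) stood in 5 of 9 windows of replication genes (55.6%), in 1 of 23 windows of mitosis genes (4.3%) and in 1.73% of all windows. The CHR letters (TTTGAA or TTCGAA) stood in 3 of 9 replication windows (33.3%), 11 of 23 mitosis windows (47.8%) and 17.37% of all windows. CCAAT stood in 6 of 9 replication windows (66.7%), 17 of 23 mitosis windows (73.9%) and 34.02% of all windows. These are matches of letters, and binding was not measured. The windows of 6 genes are shown because the genes recur below: Ccnb2 and Cdk1 as mitosis genes that follow the group closely, Mcm2, Mcm6 and Tyms as replication genes, of which Mcm2 parts from the mitosis genes in the testes, and Melk as the gene with the larger of the 2 sex differences called in kidney. Tyms was above the expression threshold in 2 organs only. Capitals mark the letters named above on either strand, and each window reads 5′ to 3′ towards the gene.
Ccnb2 (chr8:79981659-79981908, minus strand): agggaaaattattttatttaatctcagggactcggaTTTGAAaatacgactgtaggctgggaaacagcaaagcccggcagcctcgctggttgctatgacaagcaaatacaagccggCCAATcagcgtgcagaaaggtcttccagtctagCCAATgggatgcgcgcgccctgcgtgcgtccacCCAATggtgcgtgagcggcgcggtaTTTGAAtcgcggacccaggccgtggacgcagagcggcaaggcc
Cdk1 (chr20:19265043-19265292, plus strand): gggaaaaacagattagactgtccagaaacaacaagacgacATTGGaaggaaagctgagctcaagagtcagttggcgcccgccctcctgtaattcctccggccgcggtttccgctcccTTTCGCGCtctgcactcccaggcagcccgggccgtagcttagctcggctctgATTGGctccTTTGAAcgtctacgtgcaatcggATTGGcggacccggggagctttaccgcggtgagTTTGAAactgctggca
Mcm2 (chr4:122918095-122918344, minus strand): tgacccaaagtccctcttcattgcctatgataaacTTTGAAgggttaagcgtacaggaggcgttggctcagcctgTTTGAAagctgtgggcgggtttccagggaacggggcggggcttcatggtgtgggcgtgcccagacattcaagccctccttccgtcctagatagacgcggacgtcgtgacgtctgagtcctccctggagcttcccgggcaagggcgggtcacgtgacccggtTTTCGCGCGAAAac
Mcm6 (chr13:42404353-42404602, minus strand): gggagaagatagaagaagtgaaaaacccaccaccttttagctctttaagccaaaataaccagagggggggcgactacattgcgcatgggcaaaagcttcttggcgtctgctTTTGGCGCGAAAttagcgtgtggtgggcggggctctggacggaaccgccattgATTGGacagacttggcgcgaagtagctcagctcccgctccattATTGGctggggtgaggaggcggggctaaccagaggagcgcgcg
Tyms (chr9:120776084-120776333, minus strand): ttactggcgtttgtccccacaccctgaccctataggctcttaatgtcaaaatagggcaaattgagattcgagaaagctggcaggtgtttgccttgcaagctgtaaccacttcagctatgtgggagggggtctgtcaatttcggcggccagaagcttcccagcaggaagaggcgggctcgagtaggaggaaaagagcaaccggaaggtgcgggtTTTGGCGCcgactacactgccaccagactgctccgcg
Melk (chr5:63335901-63336150, plus strand): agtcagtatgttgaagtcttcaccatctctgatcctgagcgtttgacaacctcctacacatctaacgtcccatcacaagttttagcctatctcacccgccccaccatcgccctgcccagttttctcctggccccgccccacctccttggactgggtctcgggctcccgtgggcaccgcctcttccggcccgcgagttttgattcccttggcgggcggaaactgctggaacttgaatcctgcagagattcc
The CHR nearest to the start of Ccnb2 began 43 bases before it, and that of Cdk1 16 bases before it. Cdk1 was the 1 mitosis gene whose window also held the E2F letters, and the window of Melk held none of these elements.

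Organ labels were checked against the arrays before organs were compared. Of the arrays, 253 resembled the profile of their labelled organ more than that of any other organ, and 3 did not. These were lymph nodes: the arrays labelled mandibular lymph node of male 3 (r of 0.878 with its own organ and 0.885 with the mesenteric node) and of male 5 (0.873 and 0.946), and the array labelled mesenteric lymph node of male 5 (0.733 with its own organ and 0.882 with the mandibular node). Both nodes of male 5 are therefore called by their labels only, and results on lymph nodes are given with and without them. Among the 253, r with the labelled organ was lowest in the stomach of female 1 (0.559) and the mesenteric node of male 4 (0.600). It was also low in the aorta of male 2 (0.718), the epididymis of male 5 (0.727) and the duodenum of female 1 (0.731). These arrays were kept. Labels of sex were not all borne out: sex-linked genes went against the label in aorta male 3, heart male 5, bone marrow male 5 and bone marrow female 2. These were kept under their labels in the main fits. Of 62 organ markers listed, 50 had a probeset, 48 of these were above the study's expression threshold in their organ and 46 had that organ among their first 3. Bone marrow and epididymis had no measured marker, Cyp19a1 in ovary (6.01) and Esr1 in uterus (4.25) were below the threshold. The threshold is a signal of 100.4 on the linear scale, close to 6.7 log2 units, above which the methods call a probeset expressed, and values below it are read here only as low. Medians of whole arrays lay between 3.86 and 4.45 log2 units, and their number limits the precision.

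Bone marrow and thymus stood at the top of the organs and brain at the bottom. As a measure of the group in 1 array, the median over the 38 genes was taken. It averaged 10.44 ± 0.11 in bone marrow (SD, n = 9) and 10.04 ± 0.19 in thymus (n = 8), and these were the organs in which all 38 genes were above the threshold. Testes followed at 8.74 ± 0.09 (n = 4), then the small intestine with jejunum at 8.13 ± 0.21 (n = 9), ileum at 7.96 ± 0.14 (n = 10) and duodenum at 7.96 ± 0.58 (n = 9). The mandibular lymph node had 7.95 ± 0.53 (n = 9), spleen 7.86 ± 0.57 (n = 8), caecum 7.49 ± 0.19 (n = 10), colon 7.25 ± 0.30 (n = 10) and uterus 7.22 ± 0.36 (n = 5). Mesenteric lymph node (6.86 ± 0.51), skin (6.80 ± 0.76), ovary (6.64 ± 0.38) and stomach (6.64 ± 0.47) lay about the threshold. Without the nodes labelled as those of male 5, the mandibular node averaged 8.06 and the mesenteric node 6.72.

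Below these organs the group's median was under the threshold, so their order is an order of low values. Prostate had 5.77 ± 0.26 (n = 5) and epididymis 5.23 ± 0.17 (n = 3), and lung, liver, thyroid, adipose, pancreas, kidney and adrenal followed between 4.70 and 4.16. Pituitary, soleus, aorta, bladder, heart and gastrocnemius had between 3.99 and 3.58, and brain had 2.93 ± 0.09 (n = 10). Of the 30 steps between neighbours in this order, only 4 separated the arrays without overlap: thymus from testes, testes from jejunum, prostate from epididymis and gastrocnemius from brain. At every other step the arrays of neighbouring organs overlapped.

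**Figure D1:**
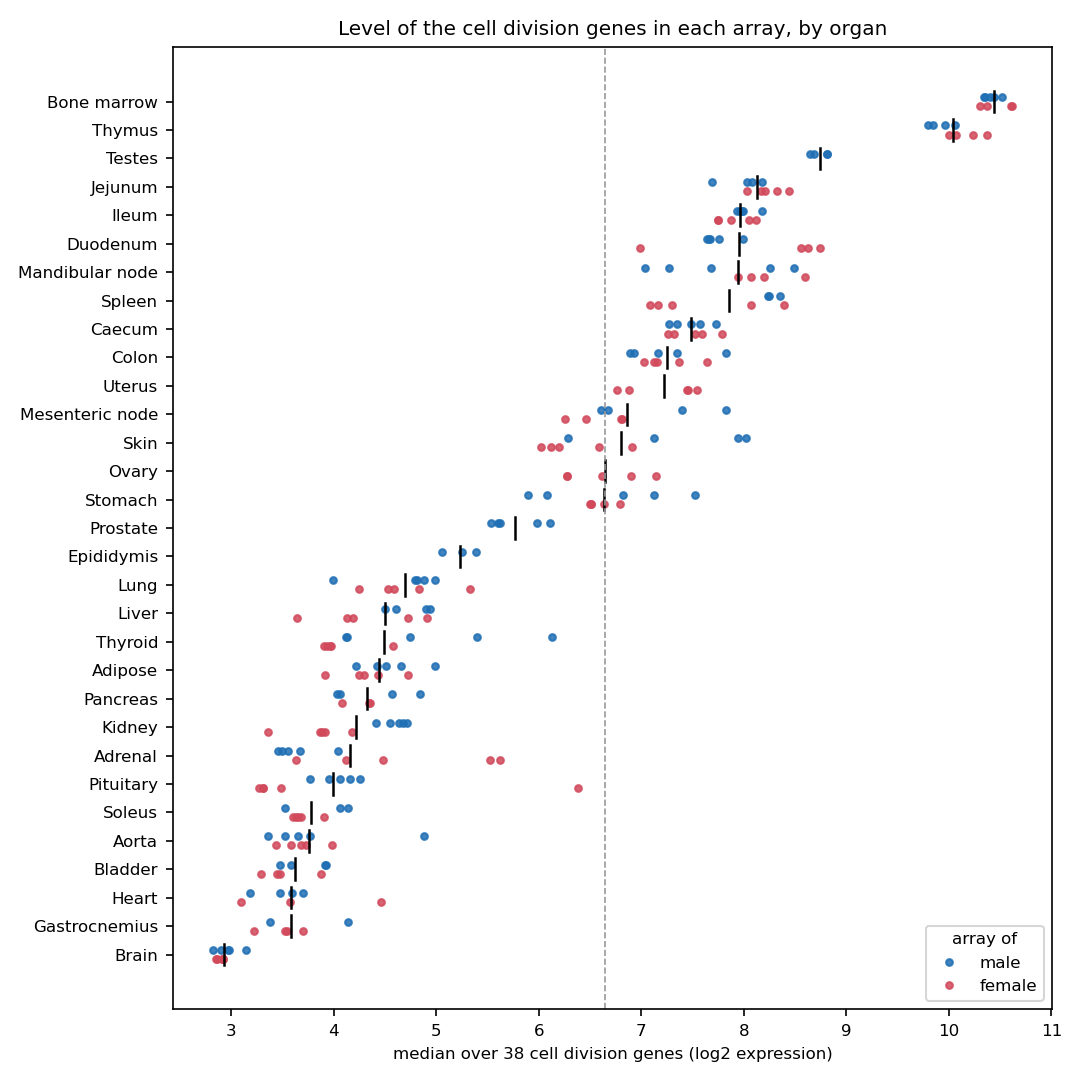
Median log2 expression over the 38 cell division genes (horizontal axis, log2 units) in each array, for the 31 organs in order from the highest mean (top) to the lowest; points are single arrays coloured by sex, short bars are organ means, and the dashed line is the expression threshold. Bone marrow and thymus stand above 9.7 in every array, and single arrays of pituitary, thyroid, skin and duodenum lie away from the rest of their organ.

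Single genes followed the same order to different degrees. Bone marrow was the highest organ for 23 genes, thymus for 9 and testes for 6, and for 30 genes bone marrow and thymus were the first 2 organs. Ccnb1 is among the 6 on its main probeset, while its second probeset was highest in thymus (10.2) and had 4.84 in testes. Brain was the lowest organ for 27 genes. Mki67, the antigen used in pathology to count cycling cells, had 12.17, 12.51 and 12.74 log2 units in bone marrow (lowest, median and highest of 9 arrays) and 2.83, 2.99 and 3.18 in brain (10 arrays). Cdk1, the kinase that drives entry into mitosis, had 10.69, 10.91 and 11.09 in bone marrow and 2.08, 2.36 and 2.62 in brain. For both genes bone marrow and brain lie far apart, with no array of the one near the other.

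Likeness to the group was described by Pearson's r between a gene's organ means and the mean of the group's median over 31 organs, which share arrays, so no test was made. It lay between 0.73 and 0.99, and 27 of 28 mitosis genes and 2 of 10 replication genes reached 0.9. The group's median holds each gene itself and mostly mitosis genes, so that mitosis genes lie closer to it is in part set by how it was made. Kif11, the motor that pushes spindle poles apart, was the mitosis gene below 0.9, at 0.86. The 5 lowest were Mcm2 (0.73), Rrm1 (0.76), Mcm4 (0.77), Tyms (0.79) and Tk1 (0.83), all replication genes. Over the 30 organs without testes these 5 were at 0.87, 0.81, 0.89, 0.87 and 0.89.

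**Figure D2:**
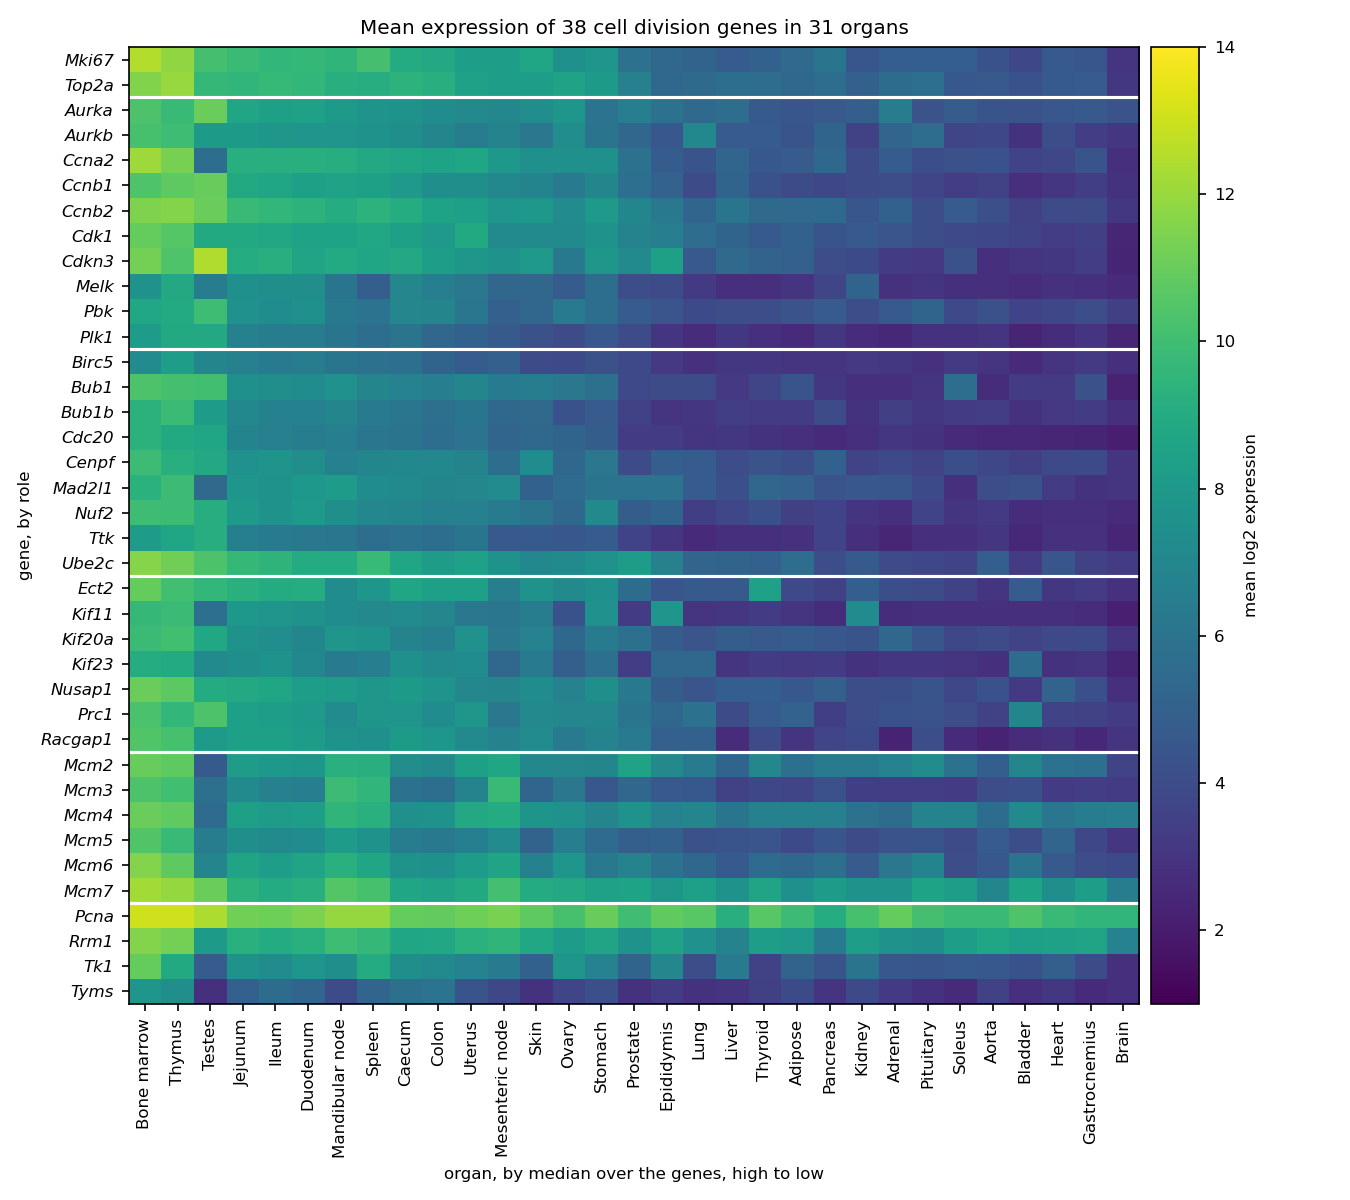
Mean log2 expression (colour, log2 units) of each of the 38 genes (rows, grouped by role, with white lines between the groups) in each of the 31 organs (columns, in the order of the group's median). The block of high values covers bone marrow, thymus and most mitosis genes of the testes, where several replication genes are dark, that is low.

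Testes were the organ in which the group's mitosis and replication genes came apart on their medians. The median over mitosis genes was 9.02 ± 0.20 log2 units in the 4 testis arrays, and the median over replication genes was 6.21 ± 0.29. Because probesets differ in brightness, the difference between these medians has no meaning of its own, and it was only compared across organs. In testes, replication minus mitosis was -2.81 ± 0.40, with single arrays between -3.10 and -2.25. The next lowest organ was caecum at 0.06 ± 0.23, and in the other organs the mean was positive, with 0.87 in bone marrow, 0.78 in thymus, 2.32 in mesenteric lymph node (2.34 without male 5) and 3.16 in bladder. In bladder only 1 of 28 mitosis genes was above the threshold (median 3.28), so the size of the difference there is not read further. Testes were among the first 3 organs for 19 of 28 mitosis genes and 2 of 10 replication genes (Mcm7 and Pcna), and at place 12 or lower for 3 mitosis genes (Ccna2, Mad2l1 and Kif11) and 8 replication genes. Ccnb1 counts among the 19 on its main probeset only. Mcm4, part of the replicative helicase, was lower in testes than in any other organ (5.52), and Mcm2, of the same helicase, was at place 30 (4.66).

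**Figure D3:**
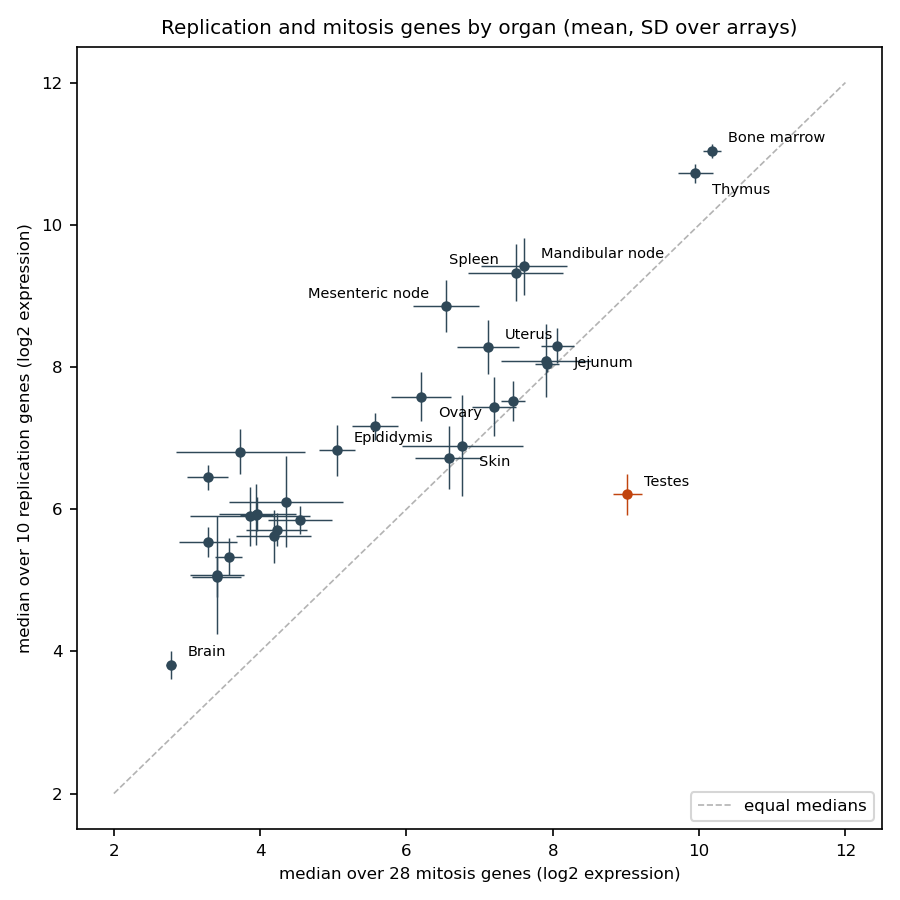
Median log2 expression over the 10 replication genes (vertical axis) against the median over the 28 mitosis genes (horizontal axis) in each organ, as means over arrays with SD bars. Most organs lie along a band above the diagonal, and testes lie below it at 9.02 for mitosis and 6.21 for replication.

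Some genes were well above the group's level in an organ, which need not be the only organ where they were high. The size of such a departure was taken as the gene's level minus the group's median in the organ, less the median of this over all organs. Kif11 in kidney departed by 4.08 log2 units, with 5.78, 7.56 and 8.40 (lowest, median and highest of 10 arrays), and the 3 epididymis arrays had 6.37, 8.33 and 8.86. Ect2, the exchange factor that starts the cleavage furrow, departed by 3.80 in thyroid, where its 10 arrays had 7.73, 8.46 and 9.06. All thyroid arrays thus held Ect2 above the threshold while the group's median there averaged 4.49.

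Further departures lay in bladder, lung, lymph node and muscle. Prc1, which bundles the microtubules of the central spindle, departed by 3.15 in bladder with 5.12, 6.91 and 8.69 (8 arrays), and Kif23, a motor of the same structure, by 3.04 with 5.09, 5.72 and 6.19. Aurkb, the kinase that corrects chromosome attachment, departed by 2.51 in lung, with 5.65, 6.48 and 8.84 in 10 arrays. In lung, Aurkb was at 7.68 or above in males 3 and 4 and females 3 and 4 and at 6.50 or below in the other 6 animals. Mcm3 departed by 3.39 in mesenteric lymph node (8.81, 9.94 and 10.17 in 8 arrays; without male 5 the departure was 3.49), Rrm1, the large subunit of ribonucleotide reductase, by 2.91 in gastrocnemius (8.27, 8.57 and 8.94 in 6 arrays), and Bub1, a checkpoint kinase, by 2.49 in soleus (5.06, 5.63 and 6.44 in 8 arrays). Mcm3 was as high in bone marrow (10.36), thymus (10.05) and mandibular node (9.92 with and without male 5) as in mesenteric node (9.76, 9.74 without male 5). Rrm1 in gastrocnemius (mean 8.59, median of other organs 8.47), Bub1 in soleus (5.68 and 5.07) and Kif23 in bladder (5.60 and 5.36) were near their level elsewhere. Their departures rest on the low group median there, and Bub1 and Kif23 were below the threshold. Cdkn3, a phosphatase of cyclin-dependent kinases, had 8.18, 8.24 and 8.72 in epididymis beside its highest level of 12.46 in testes.

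Genes outside the group that ran most like it across organs were sought among 15696 probesets of 12107 genes above the threshold in at least 1 organ. Over 31 organs the nearest were Cdca3 (r of 0.986), Cdca5l1 (0.978), Aspm (0.976), Spc24 (0.975), Knstrn (0.969), Kif15 (0.969), Spc25 (0.967), Ska1 (0.964), Cks2 (0.963) and Stil (0.961). Over 30 organs without testes, Pclaf (0.986), Kif20b (0.970), Esco2 (0.970) and Pttg1 (0.969) took the places of Kif15, Ska1, Cks2 and Stil. Pclaf, a partner of Pcna, had 12.10 log2 units in bone marrow and 4.52 in testes.

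Other cell cycle genes were read from lists that hold none of the 42. Cyclin D1 (Ccnd1), which links growth signals to G1, had its highest level in colon (10.43) and an r of -0.18 with the group over 31 organs. Ccne1 and Ccne2, the cyclins of the G1 to S step, were highest in bone marrow, at 10.51 and 10.15, with r of 0.77 and 0.75. Foxm1, an activator of mitosis genes, was highest in testes (9.71, against 7.21 in bone marrow) with an r of 0.86. Mybl1, a Myb factor of male germ cells, was also highest in testes (9.64), while its relative Mybl2 was at 2.66 in testes and 9.17 in bone marrow. The meiotic axis genes Sycp1, Sycp2 and Sycp3 were above the threshold in testes alone, at 7.90, 10.54 and 12.54.

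For comparisons of organs, a gene was called when limma's adjusted p over all 31042 probesets was below 0.05, the difference was over 1 log2 unit (a fold of 2) and the mean was above the threshold in at least 1 of the organs, with sex in the model. These are the study's criteria for the sexes, applied to organs. Differences are given as log2 units with their standard errors.

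Thymus and bone marrow, the organs that make T cells and other blood cells, held most of the genes within the call's limit of each other. Thymus minus bone marrow called 2 of 38 genes higher and 1 lower, where 10.1% and 5.62% of all probesets were called, and the median difference was -0.25. By the adjusted p alone 8 genes were higher and 20 lower in thymus, where 31.5% and 49.5% of all probesets were, and the arrays of the organs did not overlap for 10 genes, where they did not for 57% of all probesets. Melk, a kinase of proliferating progenitors, had 8.55, 8.88 and 9.05 in thymus (lowest, median and highest of 8 arrays) and 7.16, 7.64 and 8.07 in bone marrow (9 arrays), without overlap. Its difference was 1.15 ± 0.09 (limma, adjusted p 2.93e-08). Birc5, the survivin subunit of the Aurkb complex, had 7.73, 8.35 and 8.73 in thymus and 6.84, 7.22 and 8.20 in bone marrow, which overlap, and differed by 1.01 ± 0.20 (adjusted p 0.00023). Tk1, thymidine kinase of the salvage pathway, went the other way with 8.36, 8.996 and 9.14 in thymus and 10.49, 11.00 and 11.20 in bone marrow (-2.01 ± 0.12, adjusted p 8.59e-10). A second Tk1 probeset had 8.56 in thymus and 10.67 in bone marrow. The samples' markers differ as the organs do: T-cell gene Cd3g averaged 14.03 in thymus and 7.72 in bone marrow, and red-cell gene Slc4a1 2.17 and 13.29. Birc5 lies close to the call's limit of 1 log2 unit, and after quantile normalisation 0 genes were called higher.

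Spleen, which holds red-cell precursors as well as lymphocytes in rats, was far below bone marrow. Spleen minus bone marrow called 37 of 38 genes lower and none higher, where 5.41% and 8.11% of all probesets were called, and the median difference was -2.40. By role, all 28 mitosis genes and 9 of 10 replication genes fell, with medians of -2.51 and -1.88. Bub1 had 6.08, 6.98 and 7.40 in 8 spleens and 10.06, 10.41 and 10.59 in 9 marrows, a difference of -3.39 ± 0.15 (limma, adjusted p 3.93e-11). Cdc20, the activator of the anaphase-promoting complex, fell by 3.15, Bub1b, its checkpoint inhibitor, by 2.88 and Nuf2, a kinetochore subunit, by 2.88. Cyclin A2 (Ccna2) had 7.23, 8.84 and 10.24 in spleen and 11.63, 12.17 and 12.30 in bone marrow (-3.15 ± 0.33). The kinases Melk and Pbk fell by 2.81 and 2.79. Of the spindle genes, Nusap1 fell by 3.05, Ect2 by 3.01 and Racgap1 by 2.87, and of the licensing genes Mcm6 fell by 2.86, Mcm5 by 2.75 and Mcm7 by 1.93.

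The other role groups also fell. Tyms, Rrm1 and Tk1 fell by 2.51, 1.88 and 1.87, and Top2a and Mki67 by 2.36 and 2.24. Mcm3 was the gene not called, with 8.78, 9.63 and 9.99 in spleen and 10.18, 10.40 and 10.48 in bone marrow. Among related genes, 15 of 16 other replication genes and 15 of 19 other mitosis genes were also lower. The spleens were uneven: females 1, 3 and 4 had group medians of 7.30, 7.16 and 7.09 and the other 5 had 8.07 to 8.40. In these 3 spleens the mean of the measured red-cell precursor markers was 11.07 to 11.23, against 11.46 to 12.16 in the other 5, and the part of this in the result was not tested.

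Testes minus ovary set the organs with germ cells against each other. Of 38 genes 25 were called higher in testes and 4 lower, where 12.3% and 15.7% of all probesets were called, and the median difference was 2.28. Organ and sex coincide here, and the animals differ. Of the mitosis genes 23 of 28 were higher in testes and 1 was lower, with a median of 3.19. Of the replication genes 2 of 10 were higher and 3 lower, with a median of -0.60.

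Among kinases and cyclins, Cdkn3 had 12.45, 12.65, 12.53 and 12.23 in the 4 testes and 5.87, 6.46, 6.33, 5.64 and 7.12 in the 5 ovaries, a difference of 6.18 ± 0.28 (limma, adjusted p 2.45e-07). Plk1, the polo kinase of mitotic entry, had 9.09, 8.45, 8.65 and 9.29 in testes and 4.01, 4.38, 3.99, 3.52 and 4.16 in ovaries (4.86 ± 0.22). Cyclin B1 (Ccnb1) averaged 10.99 in testes and 6.37 in ovaries (4.61 ± 0.11) on its main probeset. Its second probeset ran the other way, with 4.84 in testes and 6.06 in ovaries, so the direction for Ccnb1 depends on the probeset. Among checkpoint genes Ttk, the kinase that starts the checkpoint, was 4.54 higher, Bub1 3.90 and Bub1b 3.87. Among spindle genes Kif20a was 3.44 higher, Prc1 3.36 and Ect2 2.39, and the markers Mki67 and Top2a were 2.61 and 1.18 higher.

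The genes of the group that were lower in testes were mostly of the S phase. Tk1 had 4.66, 4.72, 4.32 and 5.42 in testes and 7.92, 7.88, 8.01, 7.35 and 7.87 in ovaries (-3.03 ± 0.23, adjusted p 5.74e-06). Mcm2 had 4.51, 5.10, 4.72 and 4.30 in testes and 6.74, 7.59, 6.34, 6.84 and 7.57 in ovaries (-2.36 ± 0.30). Mcm4 was lower by a difference of -2.03 ± 0.31, and Ccna2, the cyclin of S phase and G2, by -1.79 ± 0.23, with 5.60 to 5.93 in testes and 6.84 to 8.04 in ovaries. Pcna and Mcm7 did not follow them and were 2.19 and 2.26 higher in testes. For each of the 4 genes lower in testes the arrays of the organs did not overlap on the main probeset. Tyms was below the threshold in both organs (2.74 and 3.72).

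Neighbouring genes of the cell cycle split in the same comparison. The D-type cyclins Ccnd1, Ccnd2 and Ccnd3 were lower in testes by -3.99, -4.85 and -1.74, and Ccne1 and Ccne2 were higher by 4.54 and 2.92. Of 19 other mitosis genes 9 were higher, among them Kif2c (6.99) and Espl1, the separase gene (5.89), and 1 was lower (Smc2, -1.73). Of 16 other replication genes 4 were higher, with Rfc4 at 4.49, and none was lower (median 0.34). Lower values in testes were thus found for replication genes of the group and not for this list. Of 6 meiosis genes 4 were higher, with Sycp3 at 9.69.

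Along the gut, the duodenum stood above the stomach, and the segments beyond it differed by less than the call's limit. Duodenum minus stomach was positive for all 38 genes, with a median of 1.44, and 21 genes were called higher and none lower, where 4.88% and 4.75% of all probesets were called. The genes called were 17 of 28 mitosis genes and 4 of 10 replication genes. Aurka, a kinase of the spindle pole, had 7.22, 8.30 and 9.20 in 9 duodena and 4.71, 5.80 and 7.05 in 10 stomachs, a difference of 2.50 ± 0.29 (limma, adjusted p 3.53e-06). Mcm6 had 7.83, 8.42 and 9.35 in duodenum and 5.52, 6.24 and 7.64 in stomach (2.37 ± 0.28). Neither gene overlapped between the organs. Pbk and Aurkb were higher by 1.86 and 1.76, Bub1b, Mad2l1 and Bub1 by 2.00, 1.90 and 1.54, Ect2, Racgap1 and Kif23 by 1.57, 1.35 and 1.32, Mcm5 and Mcm4 by 1.82 and 1.37, Mki67 and Top2a by 1.88 and 1.51 and Tk1 by 1.06. The crypt stem cell markers Lgr5 and Ascl2 averaged 6.02 and 4.54 in duodenum and 3.17 and 2.39 in stomach, all below the threshold. The mean of both was 5.28 in duodenum, 5.96 in jejunum and 4.88 in ileum, but 2.62 in colon. It was 5.81 in thyroid, 5.28 in uterus and 5.22 in skin, so it was not particular to the gut. The part of these markers in the result was not tested. Among transcriptional regulators E2f2 and Rbl1 were higher by 3.09 and 1.25.

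No gene of the group was called between neighbouring segments from the duodenum down. Jejunum minus duodenum had a median of 0.15, with 1.19% of all probesets called higher and 0.68% lower. Under limma 5 genes passed an unadjusted p of 0.05 (19.5% of all probesets), and the methods' t-test also called 0. Ileum minus jejunum had a median of -0.20 (1.04% higher and 1.07% lower over all probesets), with 17 genes past the unadjusted p (24.2% of all probesets) and 0 called by the methods' t-test. By the adjusted p alone 1 gene was higher and 9 were lower in ileum, where 7.34% and 8.27% of all probesets were. Caecum minus ileum had a median of -0.51 and 36 of 38 genes negative (2.2% and 2.24% over all probesets). There 35 genes passed the unadjusted p in limma (30.3% of all probesets). The adjusted p was passed by 28, all lower in caecum (10.4% of all probesets were), but none by over 1 log2 unit, and the methods' t-test called 0. Colon minus caecum had a median of -0.24 and 35 genes negative (0.954% and 0.825% over all probesets), with 13 past the unadjusted p (23.5% of all probesets), 6 past the adjusted p, all lower in colon (5.96% of all probesets were), and 0 called by the methods' t-test.

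The lymph nodes of the gut and of the head gave a result that depended on 1 animal and on how the spread was estimated. With all arrays under their labels, mesenteric minus mandibular lymph node was negative for all 38 genes, with a median of -1.08. No gene was called, the lowest adjusted p was 0.0725, 36 genes passed an unadjusted p of 0.05 in limma (13% of all probesets), and the methods' t-test called 0. Of all probesets 0% were called in either direction. The array labelled mesenteric node of male 5 was the highest of 8 mesenteric arrays for 32 of the 38 genes, and the array labelled mandibular node of male 5 was the lowest of 9 mandibular arrays for 17.

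Both labels were checked on 638 probesets outside the group that differ between the nodes of the other animals, 527 of them higher and 111 lower in the mesenteric node. Their mean contrast was -2.58 in the array labelled mesenteric node of male 5, against 1.51 to 2.81 in the other mesenteric arrays. It was 1.53 in the array labelled mandibular node of male 5, against -2.93 to 0.11 in the other mandibular arrays, where the 0.11 was that of male 3. On this measure each node of male 5 lies among the arrays of the other node.

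Without the nodes labelled as those of male 5, cell division genes were lower in the mesenteric node. All 38 differences were negative with a median of -1.30, and 24 genes were called lower and none higher, where 0.448% and 1.7% of all probesets were called. Mki67 had 7.55 to 8.54 in the 7 mesenteric nodes and 8.18 to 10.37 in the 8 mandibular nodes, a difference of -1.58 ± 0.29 (limma, adjusted p 0.00449). Its lowest mandibular values were those of male 2 (8.18) and male 3 (9.05). The nodes labelled as those of male 5 had 9.79 as mesenteric and 8.29 as mandibular. Kif20a, a motor of the late spindle, had the largest difference of the called genes (-1.93 ± 0.29), followed among them by Bub1b (-1.85), Ube2c (-1.71), Ccnb1 (-1.68), Cdc20 (-1.67), Ccna2 (-1.62) and Cdk1 (-1.59). Of the replication genes only Tk1 (-1.28) and Mcm5 (-1.18) were called, and Mcm3 differed by -0.20. Under their labels the nodes held B-cell and T-cell markers at like levels, with Cd79b at 11.52 in mesenteric and 11.93 in mandibular nodes and Cd3e at 11.29 and 11.44. Without male 5 Cd79b was at 11.46 in mesenteric and 11.93 in mandibular nodes and Cd3e at 11.30 and 11.44. Keeping all arrays but estimating the spread over every organ called 17 genes lower and none higher, where 0.309% and 0.918% of all probesets were called.

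**Figure D4:**
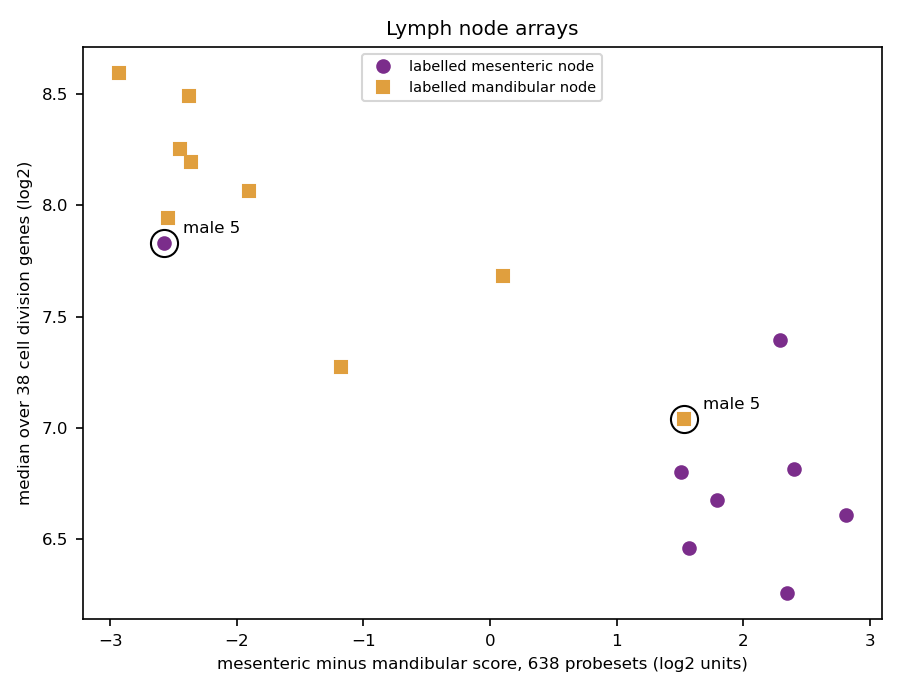
Median log2 expression over the 38 genes (vertical axis, log2 units) in each lymph node array against the mean contrast of 638 other probesets that separate the nodes (horizontal axis, log2 units, positive towards the mesenteric node). The array labelled mesenteric node of male 5 lies at -2.58 among the mandibular arrays and the array labelled mandibular node of male 5 at 1.53 among the mesenteric arrays.

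Liver and kidney are organs with few dividing cells in the adult, and the group's median was 4.50 and 4.22 there. Liver minus kidney called 0 genes higher and 3 lower, where 5.95% and 8.5% of all probesets were called, with a median of 0.33. In limma 21 of the 38 genes passed an unadjusted p of 0.05, 14 of them higher in liver, where 77.6% of all probesets passed it. Kif11 had 2.08, 3.08 and 4.69 in 9 livers and 5.78, 7.56 and 8.40 in 10 kidneys (-4.12 ± 0.23, adjusted p 3.30e-11). Rrm1 had 6.14, 6.76 and 7.60 in liver and 8.003, 8.28 and 8.41 in kidney (-1.40 ± 0.15), and Pcna had 8.91, 9.12 and 9.46 in liver and 10.10, 10.18 and 10.50 in kidney (-1.03 ± 0.07). None of the 3 genes overlapped between the organs. The mitosis genes Cdkn3 and Ccnb2 had higher values in liver, by 1.62 and 1.60, but were below the threshold in both organs.

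Males and females were compared within each of the 26 somatic organs, the comparison for which the samples were collected. Of 988 tests of a gene in an organ, 2 were called, both higher in male kidney, where 1.05% of all probesets were called higher in males. Across organs 143 tests passed an unadjusted p of 0.05 and 21 the adjusted p, where 8.76% and 1.41% of the tests of all probesets did. Kidney was also the 1 organ in which the group's median was higher in every male than in every female, with 4.42 to 4.71 in 5 males and 3.36 to 4.18 in 5 females.

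Melk had the largest sex difference. Its 1 probeset read 8.99, 6.95, 7.85, 7.07 and 7.77 log2 units in the 5 male kidneys and 2.50, 2.58, 2.66, 2.52 and 3.01 in the 5 female kidneys. Every male kidney was above the threshold and every female kidney was far below it. The difference was 5.07 ± 0.36 (limma, adjusted p 8.56e-05). Kif11 had 8.19, 8.31, 8.40, 8.35 and 7.99 in males and 5.78, 7.13, 6.36, 6.28 and 5.94 in females (1.95 ± 0.23, adjusted p 0.00129). The sexes did not overlap for Kif11 either, and its second probeset also separated them, with 6.22 to 6.69 in males and 3.53 to 5.73 in females.

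In kidney 16 genes passed the adjusted p alone, 15 of them higher in males, where 5.61% of all probesets were higher in males and 6.01% in females on that measure. Most of these were below the threshold in both sexes, with Ect2 at 5.89 in males and 3.85 in females, Mki67 at 5.21 and 3.78, Ccnb2 at 5.19 and 3.79, Cdkn3 at 4.81 and 3.04 and Mcm6 at 5.24 and 4.23. Tyms was the gene higher in females, by a male minus female difference of -0.69. For 11 of 38 genes all males were above all females, and for 1 all were below, where 5.28% and 5.42% of all probesets were so.

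**Figure D5:**
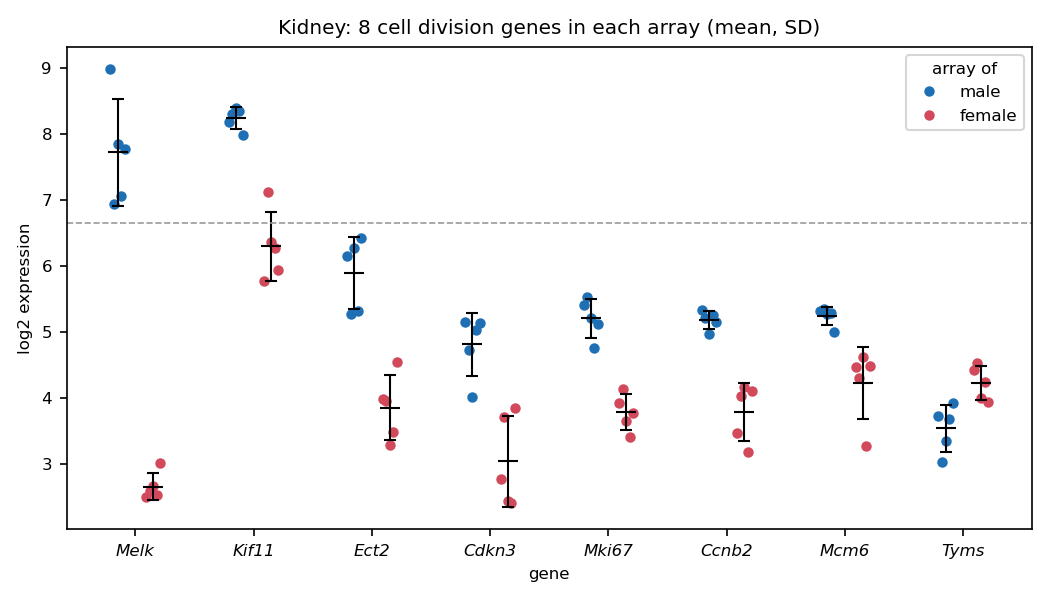
Log2 expression (vertical axis, log2 units) of cell division genes in single kidneys of 5 males and 5 females, with means and SD as bars and the expression threshold as a dashed line. Melk separates males at 6.95 to 8.99 from females at 2.50 to 3.01, and Kif11 males at 7.99 to 8.40 from females at 5.78 to 7.13.

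Duodenum had the opposite direction to kidney, and 1 array decided whether genes were called. With all arrays, 36 of 38 genes had lower values in males, with a median difference of -0.51, and none was called. Under limma 1 gene, Nuf2, passed the adjusted p there, where 9.35% of all probesets did. The duodenum of female 1 had a group median of 6.98, the other 3 females had 8.56 to 8.74 and the 5 males 7.64 to 7.99, and it was the lowest of all 9 duodena for 29 genes. Over all probesets it had an r of 0.73 with the profile of its organ, against 0.89 to 0.93 in the other duodena. Without this array 14 genes were called higher in females and none higher in males, where 0.915% and 2.42% of all probesets were called. Female 1 stood apart on these same genes, so leaving it out moves their differences towards females. The calls without it are therefore no independent support for a sex difference. Mki67 had 8.89, 9.39, 9.41, 9.24 and 9.37 in males, against 10.22, 10.51 and 10.82 in females 2, 3 and 5 and 9.001 in female 1 (-1.26 ± 0.17 without female 1, adjusted p 0.00624). Cenpf, a kinetochore protein, had the largest difference (-1.55 ± 0.20), followed by Racgap1 (-1.47), Bub1b (-1.44), Ccna2 (-1.34) and Ttk (-1.30), and no replication gene was among the 14. The mean of the crypt markers Lgr5 and Ascl2 was 3.50 to 5.47 in males, 6.25 to 6.83 in females 2, 3 and 5 and 4.61 in female 1. Most of these values were below the threshold, and the part of these markers in the difference was not tested.

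In 8 further organs at least 33 of the 38 differences had the same sign, and no gene was called in them. Thymus had 36 genes with lower values in males, with a median of -0.27. In limma 14 of them passed the unadjusted p (4.68% of all probesets), and every male was below every female for 9 (1.74% of all probesets). Aurka passed the adjusted p there (0.0419% of all probesets did), with 9.44 to 9.57 in 4 males and 9.96 to 10.11 in 4 females (-0.58 ± 0.05, adjusted p 0.0194). In skin all 38 genes had higher values in males, with a median of 1.03, 27 passed the unadjusted p in limma (12.4% of all probesets) and the lowest adjusted p was 0.0503. The males 4 and 5 had group medians of 8.02 and 7.94, and the other 7 skins had 6.02 to 7.12. Higher values in males were also held by 37 genes in spleen (median 0.74) and 36 in thyroid (median 0.57), and lower values by all 38 in jejunum (median -0.23). Spleen had 3 males, and its females 1, 3 and 4 differed from the organ's other arrays by -0.8, -1.05 and -1.29 (median over the genes). On the same measure, thyroid males 1 and 5 differed from the other thyroids by 1.76 and 0.83. In adrenal 33 genes had lower values in males, with females 2 and 3 at 5.52 and 5.62 and the other 8 adrenals at 3.45 to 4.48. Bub1b passed the adjusted p in adrenal (4.87% of all probesets did), with means of 3.13 in males and 3.79 in females, both below the threshold. The lymph nodes ran opposite ways under their labels, with all 38 genes lower in males in the mandibular node (median -0.48) and 34 higher in the mesenteric node (median 0.47). Without male 5 these were 38 lower (median -0.29) and 30 higher (median 0.26). Genes of 1 group share animals and arrays, so such counts of direction are not independent.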

How the data were processed

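RNA was taken from organs frozen within minutes of death, and pieces of each organ of each rat were hybridised singly to Affymetrix RAE230_2 arrays. The authors deposited 1 table of log2 values after GCRMA normalisation (version not given in the sources used here), with 31042 probesets on 127 male and 129 female arrays, and these log2 values were used without further scaling. The paper states that at most 2 arrays of an organ and sex were removed for quality. Male gastrocnemius, however, has 2 arrays where complete groups have 5. The number of arrays limits the precision, and values under the expression threshold of the methods are read only as low. Of all probesets 20826 had 1 gene symbol in the platform annotation, 436 several and 9780 none.

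The 42 genes and the other lists were chosen with earlier results of these data known. For each gene the probeset with the highest mean over all arrays was used. Organs, and the sexes within each of 26 organs, were compared on all probesets with limma 3.58.1 in R 4.3.3 (lmFit, eBayes, Benjamini-Hochberg), organs with sex in the model. The call criteria are those of the methods for the sexes. limma took the place of the methods' t-test because groups were small, and the t-test was an alternative. The script was tested on simulated data. Other steps used Python 3.11.15, numpy 2.4.6, pandas 2.3.3 and matplotlib 3.10.9.

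Genes were named by rule: in each comparison of organs, up to 3 called genes with the largest difference per role group and direction and any called gene against the majority; for the sexes, every called gene; the 10 other genes most like the group over 31 organs and over 30 without testes; and the 5 members least like it. Departures of genes in an organ, Nuf2 in duodenum, Aurka in thymus, Bub1b in adrenal and the genes named from lists were chosen after their values were seen. So were the alternatives without the lymph node arrays of male 5 (organ order and sexes) and without 1 thyroid and 1 aorta array.

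The sample titles number the arrays within each organ and sex. Arrays of the same sex and number were taken as 1 animal, so 7 to 10 animals pair the arrays of each comparison of somatic organs. Deviations from the organ and sex means correlated between organs of 1 animal at a mean r of -0.06 to 0.24 and between different animals at -0.03 to 0.01. The animal as a random block was an alternative. The others were quantile normalisation, no expression threshold, a fold threshold of 1.5, the mean of a gene's probesets, 1 fit over all arrays, leaving out each animal, and leaving out 4 arrays (aorta male 3, heart male 5, bone marrow male 5 and bone marrow female 2) whose sex-linked genes go against their labelled sex. No columns of the table were left unused. Amino acid sequences, and gene symbols for probesets that the annotation leaves unnamed, were not used here.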

Additional observations from a re-analysis of the deposited data

Results flagged for a closer look

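In 51 groups of 1 organ and sex with 4 or 5 arrays, the median over the 38 genes was searched for an array apart from the rest by Dixon's criterion, which marks about 1 in 20 groups by chance. It marked 7. The pituitary of female 4 read 6.39 and the other female pituitaries 3.27 to 3.48. It was the highest of 10 pituitaries for 29 of 38 genes and had 17 genes above the threshold, with Mki67 at 7.65 (3.99 to 4.91 in the other females) and Cdk1 at 7.25 (2.41 to 3.72). Its T-cell markers averaged 3.18, within the range of the other pituitaries. The aorta of male 2 read 4.88 (other males 3.36 to 3.77), with T-cell markers at 9.09 and B-cell markers at 7.95. The aortas of male 1 (T-cell markers 7.76) and female 1 (7.41) also held such markers without standing apart in the group's median. The duodenum of female 1 read 6.98 (other females 8.56 to 8.74) and decides whether a sex difference is called in that organ. The thyroid of female 4 read 4.57 (other females 3.90 to 3.97), with T-cell markers at 5.22. The ileum of male 4 read 8.18 (other males 7.93 to 7.99), the lung of male 4 read 3.99 (4.79 to 4.98) and the soleus of female 1 read 3.91 (3.61 to 3.68). The part of these markers in the values was not tested.

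The thyroid of male 1 had the highest group median of its organ (6.13) without meeting the criterion, as male 5 was at 5.40. Its T-cell markers averaged 9.20, where those of the other thyroids were at or below 5.22.

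The male minus female difference in kidney was set against the mean of the same difference in the other 25 organs, in 1 limma fit over all somatic arrays, where 6.43% of all probesets passed an adjusted p of 0.05. Of the 38 genes 7 passed, 6 of them more male in kidney than elsewhere. The differences of differences were 5.12 ± 0.29 log2 units for Melk (adjusted p 1.31e-38), 1.83 for Kif11, 1.92 for Ect2, 1.30 for Ccnb2, 1.57 for Cdkn3 and 1.37 for Mki67, and -0.77 for Tyms. Kidney was chosen for this test after its values were seen.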

How the results depend on the processing

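Of 1599 recomputed differences of called genes, 1576 kept their direction and call, 23 kept their direction and lost the call, and none reversed. The 1599 include the settings with no expression threshold and with a fold of 1.5. These use the main fit with looser limits, so a called gene could neither lose its call nor reverse there. Bone marrow, thymus and testes stayed the first 3 organs and brain the last under every alternative, and 9 to 10 of the first 10 organs were kept. Counts of called genes moved as follows. Thymus minus bone marrow gave 1 higher with the animal as replicate block, 0 after quantile normalisation, 4 at a fold of 1.5, 4 with the mean of a gene's probesets and 1 to 2 when each animal was left out (main 2), and 10 lower at a fold of 1.5 and 1 to 2 with animals left out (main 1, 2 without female 4). At a fold of 1.5, jejunum minus duodenum gave 1 higher, caecum minus ileum 12 lower and colon minus caecum 1 lower, against 0 each. Mesenteric minus mandibular lymph node gave 17 lower in 1 fit over all arrays and 0 to 24 with animals left out, the 24 without male 5. Liver minus kidney gave 5 higher and 6 lower with no expression threshold. Between the sexes, the count higher in males (main 2) was 8 with no threshold, 9 in 1 fit over all arrays, 9 with the replicate block and 2 to 3 with animals left out. The count higher in females (main 0) was 1 at a fold of 1.5, 2 in 1 fit over all arrays, 2 with the block and 0 to 14 with animals left out, the 14 without female 1. With the block, the other counts between organs were those of the fit without it. No paired fit was possible for testes and ovary, which come from different animals. The causes of these moves were not tested.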
